A study of Rattus norvegicus with 2 samples.

Results

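The core circadian clock was examined as 10 genes (Clock, Arntl, Per1, Per2, Per3, Cry1, Cry2, Nr1d1, Nr1d2 and Dbp), taken as every non-control probe whose gene name in the scanner files was one of these. They are 10 of 17573 named genes on the array and were read by 16 probes on 25 spots, of 30367 probes on 42877 spots in all, and all 10 genes and 16 probes were well above background on both arrays. Arntl is the older name of Bmal1 and is kept here as the array gives it. RNA came from the hypothalamic paraventricular nucleus of male Sprague Dawley rats at 12 weeks of age. The dexamethasone array carried RNA from rats whose mothers received 200 µg/kg of the synthetic glucocorticoid dexamethasone during the last trimester of pregnancy. The control array carried RNA from rats whose mothers received vehicle. The labels name no treatment of the offspring themselves. The sources used here do not give the time of day at which tissue was taken, or whether an array read a single rat or a pool.

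The clock is a loop of transcription and feedback that runs in nearly every cell. CLOCK and ARNTL (BMAL1) pair and switch on genes that carry an E-box in their promoter, among them those of the PER and CRY proteins, which return to the nucleus and repress the pair. A second loop is closed by NR1D1 and NR1D2 (REV-ERB alpha and beta), which repress Arntl through ROR elements, and DBP carries the rhythm onward by activating genes with a D-box. In the hypothalamus the master clock lies in the suprachiasmatic nucleus, which sends projections towards the paraventricular nucleus, where the release of corticotropin-releasing hormone follows a daily rhythm. In rodent tissues outside the suprachiasmatic nucleus, Arntl, Clock and Cry1 transcripts peak between night and dawn, and those of Nr1d1, Nr1d2, Dbp and the Per genes between day and dusk.

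The oligonucleotides that read the members are shown where a gene had probes that differed from each other or where its difference was among the larger ones. Each has 60 bases, printed 5′ to 3′ from the deposited scanner files, with positions on the rn4 assembly as those files give them. The Clock and Arntl probes lie on the plus strand and the Per2 and Per3 probes on the minus strand.
Clock probe 1 (chr14:34243744-34243803): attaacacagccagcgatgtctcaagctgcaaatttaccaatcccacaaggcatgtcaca
Clock probe 2 (chr14:34254357-34254416): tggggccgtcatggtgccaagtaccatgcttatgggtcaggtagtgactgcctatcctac
Arntl probe 1 (chr1:171161969-171162028): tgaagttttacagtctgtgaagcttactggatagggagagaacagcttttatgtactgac
Arntl probe 2 (chr1:171154767-171154826): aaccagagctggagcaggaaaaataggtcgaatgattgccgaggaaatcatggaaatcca
Per2 (chr9:90645610-90645669): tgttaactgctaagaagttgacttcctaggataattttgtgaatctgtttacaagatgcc
Per3 probe 1 (chr5:168152779-168152838): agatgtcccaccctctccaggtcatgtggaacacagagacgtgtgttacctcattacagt
Per3 probe 2 (chr5:168155353-168155412): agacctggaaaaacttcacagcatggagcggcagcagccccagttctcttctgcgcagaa
Per3 probe 3 (chr5:168152839-168152898): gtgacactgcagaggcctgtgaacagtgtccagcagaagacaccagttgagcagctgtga
Per3 probes 1 and 3 abut each other in the genome, so they read neighbouring stretches of the gene. Probe 1 of a gene is its brightest, and stands for the gene wherever 1 value per gene is given. The Nr1d1 probe spans an interval of 355 bases for its 60 (chr10:87543165-87543519), and the files list the Nr1d2 probe as unmapped. A rn4 gene annotation was not used here, so exon positions are not stated.

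The promoters of 3 members are shown because they hold matches to elements through which the loops are known to connect. RefSeq promoter windows (GRCr8 assembly, 250 bases before to 50 after the transcription start) were searched on both strands for an E-box (CACGTG), its variant CACGTT, a D-box (TTATGCAA or TTATGTAA) and a ROR element (AA, any base, T, then A or G, then GGTCA), and capitals mark the matches. None of the marked matches overlap.
Arntl (chr1:176766078-176766377, plus strand): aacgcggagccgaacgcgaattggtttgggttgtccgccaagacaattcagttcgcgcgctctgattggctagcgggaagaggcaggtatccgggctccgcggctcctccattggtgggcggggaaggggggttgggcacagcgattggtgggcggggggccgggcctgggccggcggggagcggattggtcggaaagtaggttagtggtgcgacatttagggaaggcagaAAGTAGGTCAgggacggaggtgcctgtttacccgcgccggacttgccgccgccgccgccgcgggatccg
Per2 (chr9:99496944-99497243, minus strand): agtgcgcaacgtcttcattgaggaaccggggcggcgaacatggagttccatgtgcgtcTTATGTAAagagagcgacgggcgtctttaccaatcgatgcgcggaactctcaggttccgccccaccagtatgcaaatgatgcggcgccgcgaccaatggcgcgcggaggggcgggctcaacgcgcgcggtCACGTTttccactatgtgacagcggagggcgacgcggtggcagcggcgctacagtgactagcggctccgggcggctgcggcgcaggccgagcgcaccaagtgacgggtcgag
Nr1d1, second window (chr10:84229405-84229704, minus strand): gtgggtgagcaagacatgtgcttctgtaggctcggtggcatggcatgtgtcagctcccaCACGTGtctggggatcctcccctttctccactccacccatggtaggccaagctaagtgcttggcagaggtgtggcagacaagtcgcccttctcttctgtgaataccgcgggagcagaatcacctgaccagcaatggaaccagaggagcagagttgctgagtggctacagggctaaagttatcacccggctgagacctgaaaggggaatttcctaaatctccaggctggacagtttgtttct
The Arntl window holds a ROR element from -19 to -10 relative to the start. The Per2 window holds the E-box variant from -62 to -57 and a D-box from -192 to -185. The Nr1d1 window holds the palindromic E-box from -191 to -186, and its other window holds the variant, as does the Cry2 window. Of all 33469 windows, 6.42% hold the E-box, 4.83% the variant, 1.73% a D-box and 0.481% a ROR element. Windows matched 9 of the 10 members, 11 windows in all since Nr1d1 and Clock have a pair each, and Cry1 was not matched. The windows of Dbp, Per1, Per3, Clock and Nr1d2 hold none of these letters. Neither do any of the 11 hold the cAMP response element TGACGTCA, found in 1.83% of all windows, through which Per1 is known to be induced. These are letters found in a sequence, and binding was not measured. A glucocorticoid response element was also searched for, and was held by 0 of the 11 windows and by 5 of all 33469. The windows reach only from 250 bases before the start to 50 after it, and elements outside them could not be found. The lack of a match therefore does not show that Per1 or another member lacks either response element.

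The arrays differed in markers of brain regions, among them Avp at -1.91 and Neurod2, a transcription factor gene of cortical neurons, at 4.66. These and all later differences are log2 of the dexamethasone over the control signal, after each array was divided by its 75th percentile, so that -1 and 1 mark 2-fold. Of 7 markers of the labelled nucleus 6 were measured on both arrays, with a summed scaled level of 2.11 in the dexamethasone array and 4.33 in the control array. The lower sum follows Avp (signal 970 in the dexamethasone and 3464 in the control array) and Oxt (587 and 1455). Crh went the other way (636 and 230). Of the 6, 2 were above and 4 below 0, so the sum does not stand for the nucleus as a whole. Avp (-1.91), Oxt (-1.38), Trh (-0.24), Pou3f2 (0.24) and Crh (1.39) were clearly detected, Sim1 was dim (12.0 in the dexamethasone and 14.1 in the control array) and Otp passed background with dexamethasone only (8.26, against 1.92 in the control array). Of 13 cortex and striatum markers 12 were measured and all 12 were above 0, with a summed scaled level of 17.5 in the dexamethasone array and 3.54 in the control array. Neurod2 had a signal of 5376 in the dexamethasone array and 202 in the control array, and Tbr1 passed background with dexamethasone only. All 9 thalamic markers were below 0, with a summed level of 47.5 in the dexamethasone array and 91.5 in the control array, and Rora is 1 of them. Over all measured genes 48.7% were below 0. The marker lists were chosen with earlier results of these data known, so these counts describe the arrays and are not independent support. Of 9 suprachiasmatic markers 6 were measured, 2 above and 4 below 0, with a summed level of 3.73 in the dexamethasone array and 6.37 in the control array. These were Vip (-1.06), Rgs16 (-0.95), Vipr2 (-0.80), Syt10 (-0.28), Grp (0.38) and Lhx1 (0.78), while Prok2 and Six6 passed background on neither. Summed levels in the dexamethasone and control arrays were 73.1 and 60.5 for 5 astrocyte markers, 314 and 299 for 5 oligodendrocyte markers and 51.3 and 18.1 for 2 blood markers. Nms, of the suprachiasmatic list, and Hba-a2, of the blood list, were not analysed here. The part of these markers in the clock gene differences was not tested, and in bulk RNA fewer cells of a type and less RNA per cell cannot be told apart.

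The core clock genes lay close to equality between the dexamethasone and the control array. No member (0 of 10) differed by 2-fold, the size rule used here in place of a test, and 0 of 10 differed by 1.5-fold. Of 14175 named genes with a measurement in both arrays, 5.76% passed 2-fold either way, 3.37% being higher and 2.38% lower with dexamethasone. The share past 1.5-fold was 14.8%, made up of 7.3% higher and 7.52% lower. The members lay between -0.31 (Arntl) and 0.19 (Clock), with a median of -0.09 beside 0.01 over all measured genes. Below 0 were 8 of the 10 members, beside 48.7% of all measured genes. This count depended on the processing, being 7 with median scaling and 9 with the mean over probes. Counted by probe, 14 of 16 were below 0, and 6 of these by more than the scanner's own error, which is described next. The 6 are probes of Arntl, Per2, Per3 and Clock, and probes of the same gene are not separate support. The share over all probes was not counted. By gene, 48% of all measured genes passed that error either way.

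**Figure D1:**
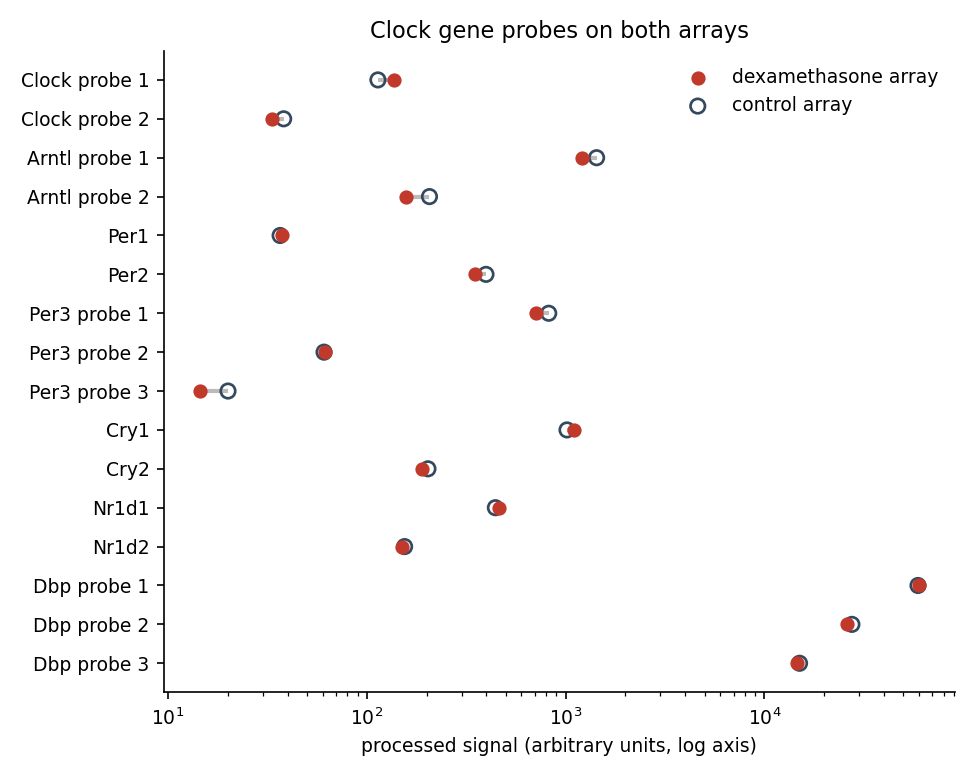
Processed signal (arbitrary units, log axis) of each of the 16 clock gene probes, a row per probe, in the dexamethasone array (filled) and the control array (open). The pair of points of each probe lie close together, and the widest gap is that of Per3 probe 3 at 14.5 and 20.1; signals of different probes are not to be set against each other.

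With 1 array per group there is no measure of the spread between animals. What the files do hold is the scanner software's error estimate for each spot, which comes to 0.20 to 0.28 (log2) for the difference between arrays of a member's probe. This quantity, called scanner error here, was exceeded by 3 of the 10 members (Arntl, Per2 and Per3), and by 48% of all measured genes. Except for dim probes it stayed near 0.20 whatever the signal, so there it works much as a fixed cut-off. It was averaged over spots and not reduced for the 10 spots of Per2. The SD of the difference over repeated spots of a probe had a median of 0.04 over 1390 probes with repeated spots, and of 0.03 to 0.28 among those with signals like each member probe's, the highest beside the dim Per3 probe 3.

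Arntl and Clock encode the activators. Arntl, the partner without which the loop does not run in mice, had a signal of 1215 in the dexamethasone array and 1432 in the control array on probe 1. The difference was -0.31 with a scanner error of 0.20, and probe 1 was thus 1.24-fold lower in the dexamethasone array. Probe 2, at 157 in the dexamethasone and 207 in the control array, was at -0.47. Both Arntl probes therefore lay below 0 by more than the scanner error. Among 1620 genes with a signal within 0.5 (log2) of that of Arntl, 27.3% differed at least as far either way.

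Clock, the other partner in the activator pair, gave no single direction. Probe 1 had a signal of 137 in the dexamethasone array and 114 in the control array, a difference of 0.19 with a scanner error of 0.21. Probe 2 had 33.4 in the dexamethasone array and 38.2 in the control array, a difference of -0.27 with a scanner error of 0.22. The probes thus lay on opposite sides of 0, and their mean was -0.04. Among 1255 genes of like signal, 56.6% differed by at least as much as probe 1.

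The period genes encode the repressors that accumulate through the day. Per2, whose transcript follows both the E-box loop and acute signals, was spotted 10 times on each array. Its signal was 335 at the lowest and 363 at the highest spot in the dexamethasone array, and 384 to 415 in the control array. Mean signals were 349 ± 10.9 in the dexamethasone array and 398 ± 10.2 in the control array (SD over 10 spots). The spots of both arrays did not overlap, and 10 of 10 spot pairs were lower in the dexamethasone array, with differences of -0.32 to -0.17. The difference was -0.26, with an SD of 0.04 over the spot pairs and a scanner error of 0.20. The repeated spots share 1 RNA sample per array, so they show that the reading is repeatable within these arrays and carry nothing on animals. Among 1468 genes of like signal, 39.3% differed at least as far.

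**Figure D2:**
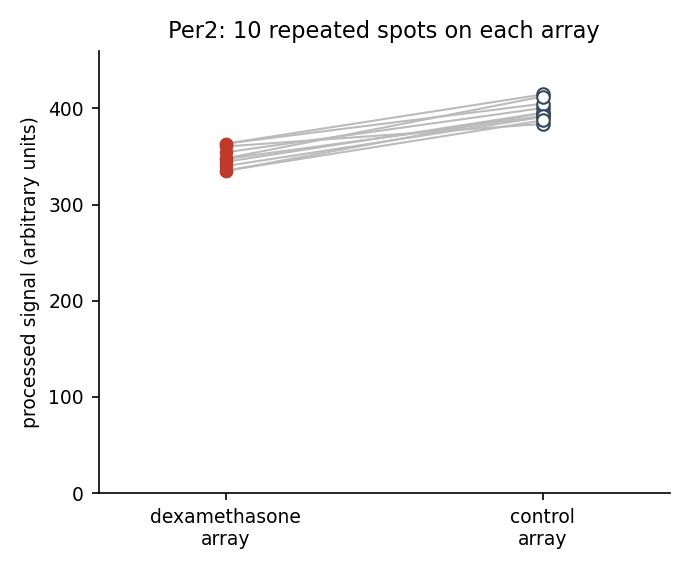
Processed signal (arbitrary units, axis from 0) of the 10 repeated spots of the Per2 probe in the dexamethasone array (left) and the control array (right), with a line for each spot position. All dexamethasone spots (335 to 363) lie under all control spots (384 to 415).

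Per3, the period gene with the least part in keeping the rhythm in mice, was below 0 on all 3 probes. Probe 1 had a signal of 706 in the dexamethasone array and 823 in the control array, a difference of -0.30. Probe 2 had 61.6 in the dexamethasone and 61.0 in the control array before scaling, and was at -0.06 after it. Probe 3, close to background with 14.5 in the dexamethasone and 20.1 in the control array, was at -0.54 with a scanner error of 0.28. Probes 1 and 3 lay past the scanner error and probe 2 within it. Among 1683 genes with a signal like that of probe 1, 33.1% differed at least as far.

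Per1, which light and glucocorticoids induce within the hour in many tissues, had nearly equal signals of 37.6 in the dexamethasone array and 36.7 in the control array. Its difference was -0.04 with a scanner error of 0.23, so it gave no direction. With the local background at 59 in the dexamethasone and 68 in the control array, its raw spot means were 91.2 in the dexamethasone and 90.8 in the control array, and background therefore made up most of what was read.

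The cryptochromes are the stronger repressors of the activator pair. Cry1, which peaks late in the night, had a signal of 1099 in the dexamethasone array and 1016 in the control array, a difference of 0.04. Cry2, whose rhythm is weak and which was therefore placed in neither phase group, had 190 in the dexamethasone array and 203 in the control array, a difference of -0.17. Both lay within the scanner error of 0.20.

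Nr1d1 and Nr1d2, nuclear receptors that bind haem and repress Arntl, differed little. Nr1d1 had a signal of 462 in the dexamethasone array and 443 in the control array, which scaling brought to -0.01. Nr1d2 had 151 in the dexamethasone array and 155 in the control array, a difference of -0.11. Among genes of like signal, 96.3% of 1533 differed by at least as much as Nr1d1.

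Dbp, a transcription factor whose transcript swings widely over the day in rodent tissues, was bright on all of its 3 probes. Probe 1 had 59762 in the dexamethasone array and 59201 in the control array, a difference of -0.06. Probe 2 had 25922 in the dexamethasone array and 27538 in the control array (-0.16), and probe 3 had 14510 in the dexamethasone array and 15019 in the control array (-0.13). All 3 probes were below 0 and within the scanner error of 0.20. None was saturated on either array.

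**Figure D3:**
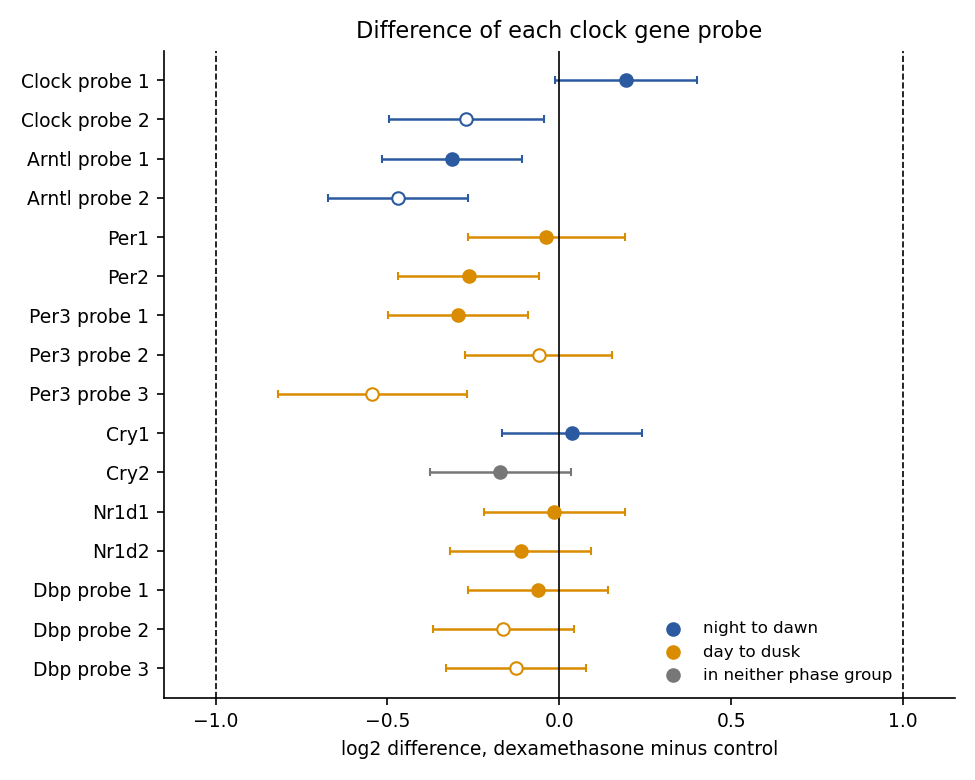
Log2 difference, dexamethasone minus control, of each of the 16 probes, a row per probe, with the scanner error as bar. Filled points are the brightest probe of a gene, colours give the phase group, dashed lines mark 2-fold, and all points lie between -0.54 and 0.19.

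The members were then compared by phase, since a shift in clock time can move genes of opposite phase in opposite directions. Whether it does depends on the time of sampling, which is not known here. The night-to-dawn genes had differences of -0.31 (Arntl), 0.19 (Clock) and 0.04 (Cry1), with a median of 0.04. The 6 day-to-dusk genes ran from -0.30 (Per3) to -0.01 (Nr1d1), with a median of -0.09, and all 6 were below 0, though Per1 and Nr1d1 turned positive under other scalings. The night-to-dawn median minus the day-to-dusk median was 0.12, and no error can be given for this difference of medians of 3 and 6 genes. On these probes Arntl lay below the 6 day-to-dusk genes, and Clock and Cry1 above them. Clock's place depended on the probe, since probe 2 was at -0.27 and the mean over both probes, -0.04, lay within the day-to-dusk range. Read by probe 2, Clock would bring the night-to-dawn median below the day-to-dusk one. Arntl and its repressor Nr1d1, which run in opposite phase, differed by -0.30 in their shifts, while Arntl and Per3, also of opposite phase, differed by -0.02. Levels at other times of day were not measured, so neither array can be placed on the daily cycle.

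**Figure D4:**
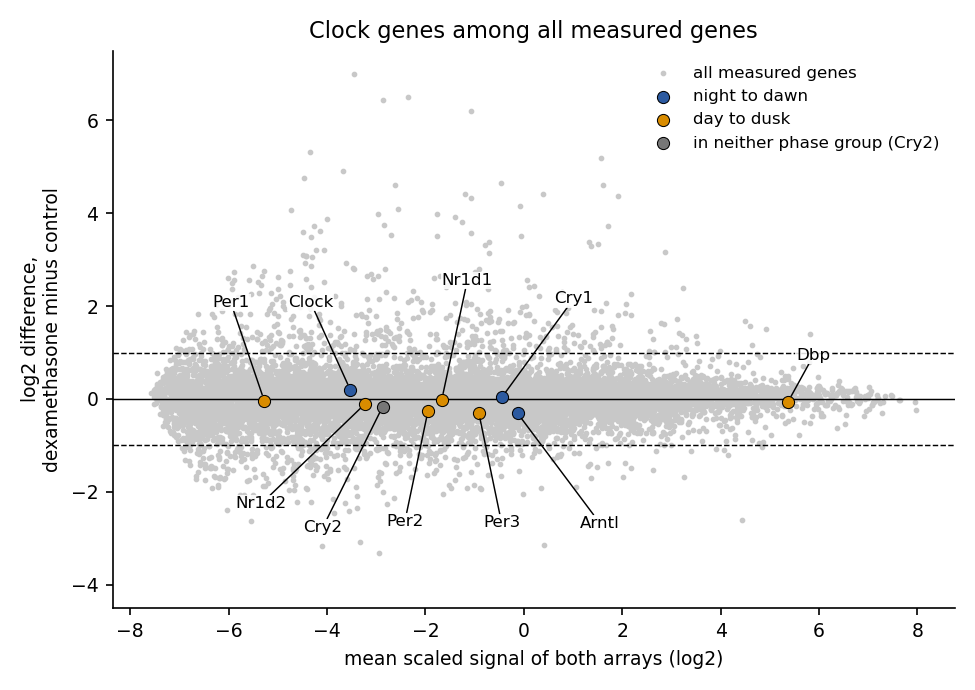
Log2 difference, dexamethasone minus control, against the mean scaled signal of both arrays (log2) for all 14175 measured genes (grey) with the 10 clock genes coloured by phase group. Dashed lines mark 2-fold, and the clock genes lie between -0.31 and 0.19 within these lines, Dbp at the bright end where few genes lie.

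The list of 23 further clock genes held paralogs, regulators and outputs, of which 21 were measured, 10 above 0 and 11 below it, with a median of -0.01 and none past 2-fold. Npas2, which can stand in for CLOCK in the forebrain of mice, was the lowest, with a signal of 1425 in the dexamethasone array and 2083 in the control array (-0.62), but its other probe was at -0.09. It was the only one past 1.5-fold. Rora, which activates Arntl through the ROR element, was at -0.47. Ciart, a repressor of the CLOCK and ARNTL pair, was at -0.34, and the E-box repressors Bhlhe41 and Bhlhe40 were at -0.33 and -0.26. Rasd1, a small G protein that dexamethasone induces, was at -0.27, and Arntl2, the paralog of Arntl, at -0.25. Nfil3, which represses D-box genes, was the highest at 0.31, and Timeless, a partner of replication forks, followed at 0.25. Beyond these 9, of which 7 were lower and 2 higher by more than the scanner error, 12 lay within the scanner error. The 9 of 21 past it stand beside 48% of all measured genes.

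Among those 12 were the relatives of Dbp and genes that set the stability of PER. Tef and Hlf, the other members of Dbp's family, were at 0.04 and -0.10. The casein kinases Csnk1d and Csnk1e, which phosphorylate PER, were at 0.11 and -0.15. Neither gave a single direction, since Csnk1d's other probe was at -0.21 and Csnk1e's others at -0.25 and 0.08. Btrc, a ubiquitin ligase subunit that acts on PER, was at 0.13. Cipc, an inhibitor of CLOCK, was at 0.16, and Rorb, a relative of Rora, at -0.14. Rhythmic outputs lay close to 0, with Nampt, of NAD synthesis, at 0.15, the ubiquitin protease Usp2 at 0.05, the deadenylase Noct at 0.02 and the mitotic kinase Wee1 at -0.01. Fbxl21 was not analysed here.

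Genes that neuronal activity or glucocorticoids induce within minutes to hours were set beside Per1 and Per2, which respond to the same signals. Of 10 such genes 5 were higher by 2-fold or more with dexamethasone and 0 lower by as much, with a list median of 0.88. Over all measured genes 3.37% were higher and 2.38% lower by that size, and the median was 0.01. Arc, of synaptic plasticity, had a signal of 3757 in the dexamethasone array and 602 in the control array (2.57). The transcription factor genes Egr1 (1.35), Junb (1.33) and Nr4a1 (1.23) and the glucocorticoid-induced co-chaperone gene Fkbp5 (1.35) were the others past 2-fold. Fos and Sgk1, each at 0.54, and Npas4 at 0.33 were above 0, and Tsc22d3 (-0.01) and Dusp1 (-0.19) were not. Npas4 was dim (11.0 in the dexamethasone and 8.28 in the control array), and its difference lay within its scanner error of 0.36. The differences of Tsc22d3 and Dusp1 also lay within the scanner error. Per1 was at -0.04, between Tsc22d3 and Dusp1, and Per2, at -0.26, was below all 10. Several of these genes are also abundant in cortex, whose summed markers stood at 17.5 in the dexamethasone array and 3.54 in the control array, and the part of this in the list's differences was not tested.

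**Figure D5:**
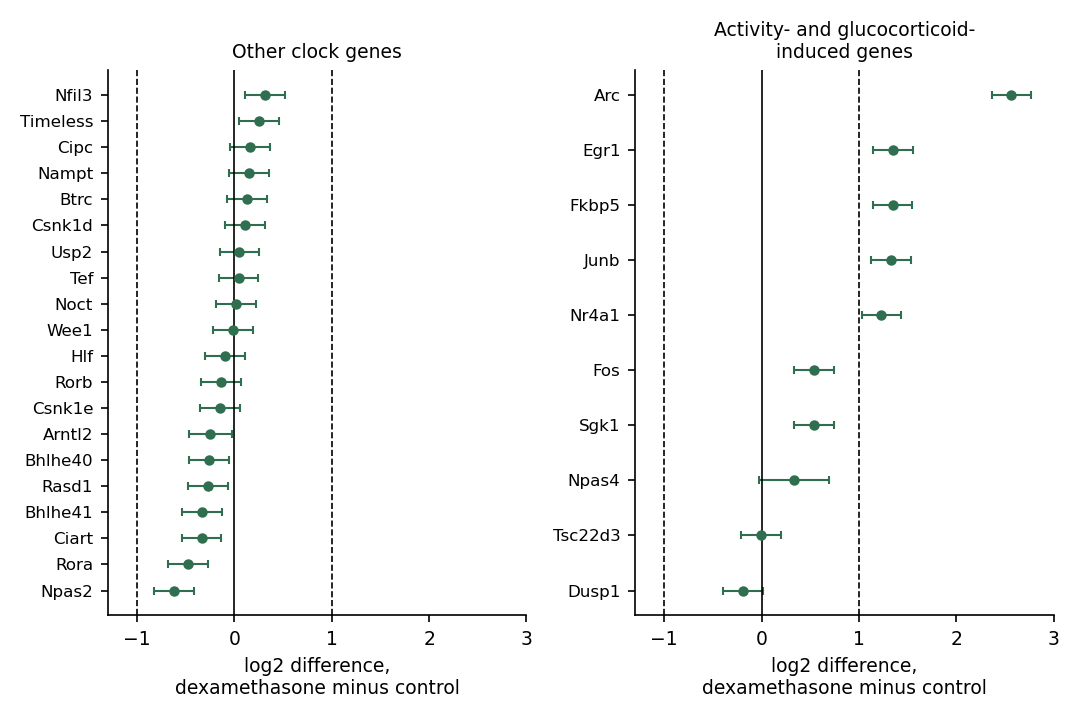
Log2 difference, dexamethasone minus control, of the other clock genes named in the text (left) and of 10 genes induced by activity or glucocorticoids (right), with the scanner error as bar and dashed lines at 2-fold. The clock genes run from -0.62 (Npas2) to 0.31 (Nfil3), and the induced genes from -0.19 (Dusp1) to 2.57 (Arc).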

How the data were processed

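RNA was hybridised with 1 colour (Cy3) to 2 arrays, 1 per group. The deposited scanner files hold spot intensity, background-subtracted and detrended by Feature Extraction 10.7.1.1 per the file headers (9.5.1.1 per the submitters' processing notes), with probe positions on rn4. The authors' deposited value table gives an intensity per probe after further processing, with a median of 149.9 in both columns and unstated centring; its column differences correlated at 0.996 with those of the scanner values across probes, which settles its direction.

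Spots with an outlier flag were left out (249 dexamethasone, 267 control), log2 processed signals averaged per probe, and the 75th percentile of each array subtracted (1477 dexamethasone, 1402 control, as linear signal). 78.2% of probes in the dexamethasone array and 79.5% in the control array were well above background. A gene took its brightest probe well above background on both arrays. Names were updated through RefSeq genes of GRCr8 (18006 probes by accession, 2654 by symbol, 559 by older symbol); 9148 probes without a match were left out of the counts over all genes. The scanner error of a difference combines the relative spot errors of both arrays. Steps were tested on simulated data. limma 3.58.1 in R 4.3.3 gave the normexp (offset 50), quantile and cyclic loess alternatives; pandas 2.3.3 did the rest.

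The number of arrays limits the precision: with 1 array per group there is no test and no p-value. Members, lists and phase groups were chosen with earlier results of these data known. All 10 members and the measured genes of the further clock list and of the list of induced genes are named, except an item not reported here; markers are named by example, chosen after their values were seen.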

Additional observations from a re-analysis of the deposited data

How the results depend on the processing

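With 1 array per group, position on the shared slide and treatment cannot be told apart, and no replicate could be left out. No paired analysis was possible because each group has 1 array. Over 9 alternatives of scaling, background correction, probe choice and source of the values, no member passed 2-fold. The members' median ranged from -0.11 to -0.05, and the phase contrast from 0.08 (mean over probes) to 0.15 (cyclic loess). With Cry2 joined to the day-to-dusk genes and Cry1 left out the contrast was 0.05, and with 5 further genes 0.13. The contrast, 0.12 as reported, stayed above 0 under each of these settings, and its size depended on which genes were grouped. Median scaling, keeping outlier spots and keeping dim probes could not change it, as they shift all members alike or leave them untouched. The deposited values (0.127) nearly repeated quantile normalization (0.128). The contrast was thus put to fewer real alternatives than were listed. None of the settings read Clock by probe 2 alone (-0.27). That reading would put the night-to-dawn median below the day-to-dusk median of -0.09. The sign of the contrast therefore depended on the Clock probe. Arntl (-0.39 to -0.28), Per2 (-0.26 to -0.23), Per3 (-0.32 to -0.28), Cry1, Cry2, Nr1d2 and Dbp kept their sign under all 9. Keeping outlier spots or dim probes could hardly move a member, since no member spot was flagged and all member probes passed the filter. Per1 turned positive under 4 (to 0.03 at most), Nr1d1 under median scaling (0.0016) and Clock with the mean over probes (-0.04). No scaling moved the median of all genes by over 0.1. Over all genes, 478 passed 2-fold upwards and 338 downwards with dexamethasone, 58.6% of them higher; with normexp correction 284 were higher and 130 lower (68.6% higher), without background correction 280 and 133, and without the filter on dim probes 870 and 732. Dim probes, such as those of Per1, Clock probe 2 and Per3 probe 3, are the least precise.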
